A study of Mus musculus with 9 samples.

Results

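The clustered protocadherins were examined in sorted fetal mouse pulmonary lymphatic endothelial cells (PLECs) over late gestation. They are the genes whose symbols start with *Pcdha*, *Pcdhb* or *Pcdhg* and hold a number. By this rule 58 of the 25206 genes on the arrays were members: 14 of the alpha cluster, 22 of the beta cluster and 22 of the gamma cluster, which are all genes of these names in the RefSeq annotation. PLECs, gated as CD31+/Vegfr3+ and Lyve1+/Pdpn+ after removal of CD45+ and Epcam+ cells, came from C57BL/6N embryos at embryonic days E16.5, E17.5 and E18.5, with 3 samples at each age. A sample pooled 10 to 21 lungs from 2 litters and was hybridised to 1 Mouse Gene 2.0 ST array, so the spread between samples is that of pools and not of single embryos. The study asked which transcripts change as pulmonary lymphatics mature before birth.

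Clustered protocadherins are cell surface proteins of the cadherin superfamily that bind the same isoform on a neighbouring cell. The alpha, beta and gamma clusters lie in tandem on 1 chromosome. Each variable exon of the alpha and gamma clusters has its own promoter and is spliced to constant exons that its cluster shares, whereas the beta genes have a single coding exon. In mouse neurons, combinations of isoforms are chosen promoter by promoter, through looping by Ctcf and cohesin, and serve the recognition of self by dendrites and axons. The C-type members (*Pcdhac1*, *Pcdhac2*, *Pcdhgc3*, *Pcdhgc4* and *Pcdhgc5*) lie at the 3′ ends of the alpha and gamma clusters and differ in sequence from the other variable exons.

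The layout of the clusters limits what the arrays can separate. In RefSeq, all 14 alpha gene models overlapped one another, all 22 gamma gene models overlapped one another, and 0 of the 22 beta genes overlapped another member. Which exons the probes of each gene hit is not given in the sources used here. The values of alpha and gamma members may therefore include signal from the shared exons of their cluster, and those of beta members from near-identical neighbours. The members are not independent of one another for this reason. *Pcdhgb8* is annotated as a transcribed pseudogene. Levels are log2 values from Robust Multiarray Average (RMA) and are set here against the median of each array, which lay between 3.79 and 3.91. Values below it were taken as near background, a level that was not measured itself.

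With signal above the array median taken as detected, the gamma cluster was detected as a whole and most of the alpha and beta clusters were not. All 22 gamma members lay above the array median on at least 1 array, compared with 5 of 14 alpha members and 7 of 22 beta members. Over all genes this share was 55.9%. On all 9 arrays, 20 gamma members lay above the median, together with 3 beta members (*Pcdhb17*, *Pcdhb19* and *Pcdhb20*) and 1 alpha member (*Pcdha3*), against 44.1% of all genes. The exceptions in the gamma cluster were *Pcdhga2*, above the median on 7 arrays, and *Pcdhgc5*, above it on 6. In these sorted pools, fewer cells that express a gene and less of its RNA per cell cannot be told apart.

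**Figure D1:**
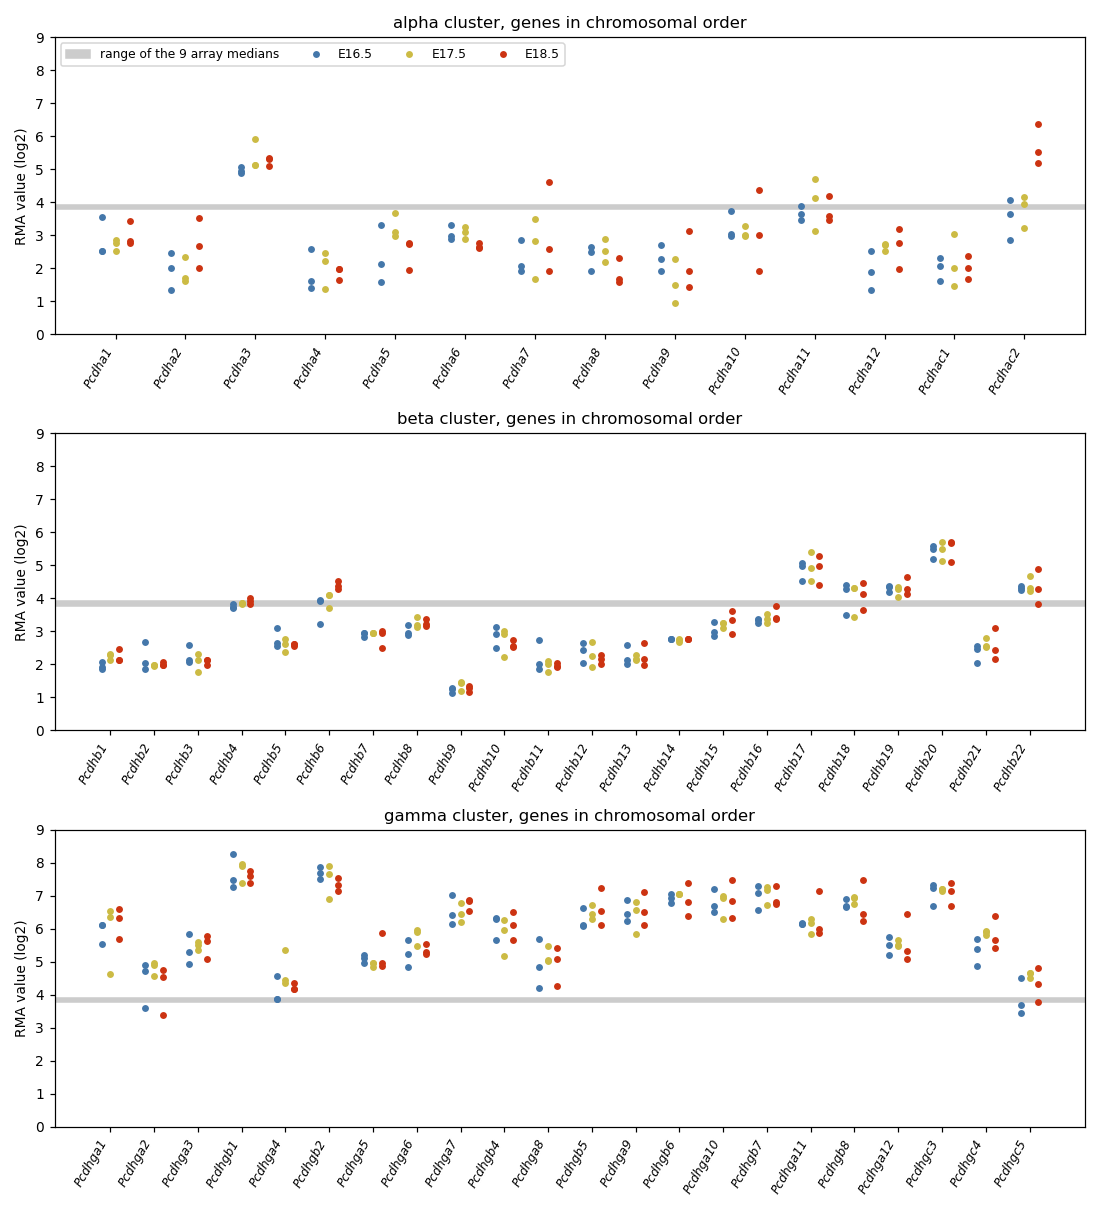
RMA values (log2) of the 58 clustered protocadherins, with genes in chromosomal order on the horizontal axis, 1 panel per cluster and 1 point per sample coloured by day. The grey band spans the 9 array medians (3.79 to 3.91): all 22 gamma members rise above it on at least 1 array, 9 of 14 alpha and 15 of 22 beta members stay below it on every array, and *Pcdhac2* lies higher at E18.5.

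The detected beta genes lay toward the gamma cluster. Of the 16 genes from *Pcdhb1* to *Pcdhb16*, 2 were above the median on at least 1 array (*Pcdhb4* and *Pcdhb6*), and of the 6 genes from *Pcdhb17* to *Pcdhb22*, 5 were, with *Pcdhb21* below it on every array. The longest unbroken stretch of neighbouring members above the median ran from *Pcdhb22* to *Pcdhgc5* and held 23 genes. It was made of the 22 gamma members, already given as above the median, and 1 beta gene. This division of the beta cluster was chosen after its values were seen, and no test was made of it. The 15 beta members below the median on every array ranged from 1.13 to 3.76 over all samples, and the 9 such alpha members from 0.94 to 3.66. For these 24 members no change was tested.

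Over the 3 days, 1 clustered protocadherin changed, *Pcdhac2*, the last variable exon of the alpha cluster, which in mouse serotonergic neurons is needed for the even spacing of axons. Its value was 4.07, 3.66 and 2.85 in the E16.5 samples, 4.15, 3.21 and 3.95 in the E17.5 samples, and 5.19, 5.53 and 6.38 in the E18.5 samples. The E18.5 samples lay above the array median and above all 6 earlier samples, while the E16.5 and E17.5 samples overlapped each other and lay on both sides of the median. The means were 3.52 ± 0.62 at E16.5, 3.77 ± 0.50 at E17.5 and 5.70 ± 0.62 at E18.5 (SD, n = 3). The rise from E16.5 to E18.5 was 2.18 on the log2 scale (SE 0.39, 95% interval 1.26 to 3.10, limma FDR q = 0.0186). Since the E16.5 mean was below the array medians, the size of this rise is uncertain.

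Between neighbouring days, *Pcdhac2* was higher at E18.5 than at E17.5 by 1.93 (SE 0.38, limma FDR q = 0.0366), and the difference between E17.5 and E16.5 was 0.25 (SE 0.38, limma FDR q = 0.791). A test of the later change against the earlier one gave a difference of 1.68 (SE 0.66, limma FDR q = 0.587), so that the rise is not shown to be confined to the later interval. The call from E16.5 to E18.5 was lost when any 1 of 3 samples was left out, with limma FDR q = 0.0692 without E16.5 replicate 2, 0.0675 without E16.5 replicate 3 and 0.0587 without E18.5 replicate 2. The rise then ranged from 1.84 to 2.26. The call from E17.5 to E18.5 was lost with the replicate number as a block (limma FDR q = 0.0793), with no filter on low values (limma FDR q = 0.0638), and without any 1 of 6 samples, which were all samples except E16.5 replicates 1 and 3 and E18.5 replicate 3. The call over the 3 days was kept in all 16 alternatives.

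Markers of other lung cells also differed between E16.5 and E18.5, although Epcam+ cells had been gated out. Over all tested genes, 3.77% rose and 6.21% fell between these days. The mean of 12 epithelial markers was 5.06 to 5.90 at E16.5, 4.87 to 5.86 at E17.5 and 6.98 to 7.13 at E18.5. Of the 12, 6 rose, and changes over the list ranged from -0.21 to 4.06. The largest was that of *Scgb1a1*, a secretory protein of airway cells (limma FDR q = 0.00347). The mean of 5 mesothelial markers was 3.76 to 3.99 at E16.5, 4.13 to 4.26 at E17.5 and 4.77 to 5.11 at E18.5, and 2 of the 4 tested rose, *Msln* and *Upk1b*. The mean of 7 blood endothelial markers was 7.87 to 8.32 at E16.5, 8.31 to 8.62 at E17.5 and 8.48 to 8.88 at E18.5, and 2 rose, *Car4* (3.62 higher, limma FDR q = 0.00347) and *Vwf*, while *Plvap* fell. The part of these lists in the rise of *Pcdhac2* was not tested. Markers of neurons, the cells best known for protocadherins, did not pass the test. Of 12, 3 were above the median (*Stmn2*, *Rbfox3* and *Gap43*, on all 9 arrays). In limma, 0 of these 3 rose or fell (0 up and 1 down at p under 0.05 before adjustment). The others of the list, among them *Tubb3*, *Elavl3*, *Elavl4*, *Snap25* and *Syt1*, were at or below the median on every array. The mean of the 12 neuronal markers was 3.32 to 3.55 at E16.5 and 3.43 to 3.52 at E18.5.

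The other C-type members gave no call. *Pcdhgc3*, which also has roles outside the nervous system in mouse, was 7.34, 6.67 and 7.23 at E16.5, 7.20, 7.21 and 7.14 at E17.5, and 6.67, 7.13 and 7.40 at E18.5. Its values overlapped on all days, and E18.5 differed from E16.5 by -0.01 (95% interval -0.58 to 0.55, limma FDR q = 0.975). *Pcdhgc4*, which mouse interneurons need for survival, was 4.86, 5.69 and 5.38 at E16.5, 5.94, 5.80 and 5.89 at E17.5, and 5.42, 5.67 and 6.39 at E18.5. The E17.5 samples lay above those of E16.5, and the change to E18.5 was 0.52 (95% interval -0.19 to 1.22, limma FDR q = 0.302).

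*Pcdhgc5*, the last gamma variable exon, had values of 3.68, 4.51 and 3.43 at E16.5, 4.66, 4.50 and 4.65 at E17.5, and 3.78, 4.32 and 4.80 at E18.5. The E16.5 and E18.5 samples spanned the array median and overlapped (change 0.42, 95% interval -0.38 to 1.23, limma FDR q = 0.446). *Pcdhac1*, the alpha neighbour of *Pcdhac2*, lay between 1.46 and 3.04 and below the median on every array, with 2.05, 1.62 and 2.32 at E16.5 and 2.38, 2.02 and 1.68 at E18.5. The difference between *Pcdhac2* and the other C-type members was not tested.

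**Figure D2:**
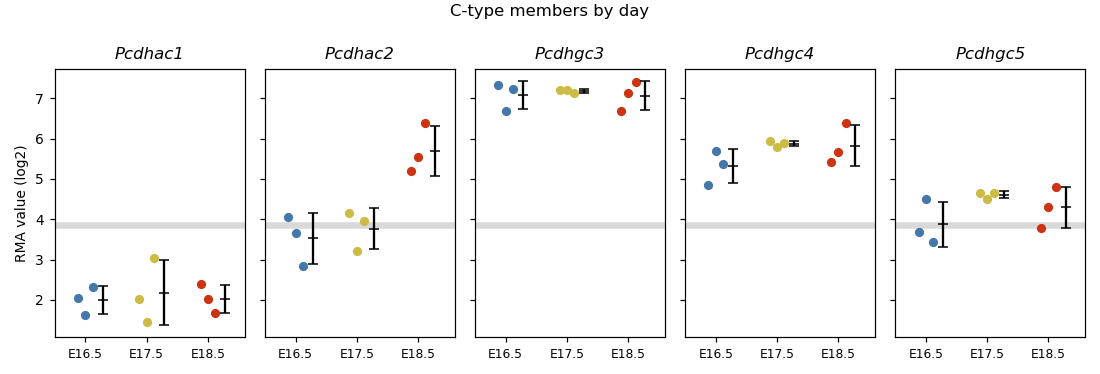
RMA values (log2) of the 5 C-type protocadherins by day, with 1 point per sample in replicate order, bars for the mean ± SD (n = 3) and a grey band for the range of the 9 array medians. The 3 E18.5 samples of *Pcdhac2* (5.19 to 6.38) lie above all its earlier samples, and the E16.5 and E18.5 samples of the other C-type members overlap.

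Counts of members called are set beside the share over all tested genes. From E16.5 to E18.5, the 95% interval of the change lay within -1 and 1 (log2) in 25 of the 34 tested members. Over all tested genes this share was 79.6%. Members without a call are not shown to be unchanged. Of the 34 members tested, 1 changed over the 3 days at an FDR q under 0.05 (limma), where 9.09% of all tested genes did. From E16.5 to E18.5, 1 member rose (3.77% of tested genes rose) and 0 fell (6.21% fell), and 33 did not pass. At an unadjusted p under 0.05 in limma, 2 members were higher (11.1% of tested genes) and 1 was lower (16.9%). From E16.5 to E17.5, 0 members rose (0% of tested genes) and 0 fell (0.149%), with 3 at an unadjusted p under 0.05 (14.7% of tested genes). From E17.5 to E18.5, 1 member rose (1.18%) and 0 fell (0.717%), with 1 at p under 0.05 before adjustment (17.6%). The later change differed from the earlier one in 0 members (0% of tested genes), with 3 at an unadjusted p under 0.05 (8.11%).

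Every E18.5 sample lay above every E16.5 sample in 3 of the 34 tested members (11.9% of tested genes), *Pcdhac2*, *Pcdhb6* and *Pcdha3*, and every one lay below in 0 (18.3%). *Pcdhb6* was 3.92, 3.22 and 3.97 at E16.5, 3.70, 4.10 and 4.10 at E17.5, and 4.53, 4.37 and 4.28 at E18.5. The earlier samples lay on both sides of the array medians, and those of E18.5 above them. Its difference from E16.5 to E18.5 was 0.69 (SE 0.21, limma FDR q = 0.0865), and it passed in a fit on all 9 arrays (limma FDR q = 0.0483). *Pcdha3* was 5.08, 4.94 and 4.89 at E16.5, 5.13, 5.93 and 5.13 at E17.5, and 5.33, 5.09 and 5.32 at E18.5. The lowest E18.5 sample was just above the highest of E16.5, and the difference was 0.27 (SE 0.12, limma FDR q = 0.179).

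**Figure D3:**
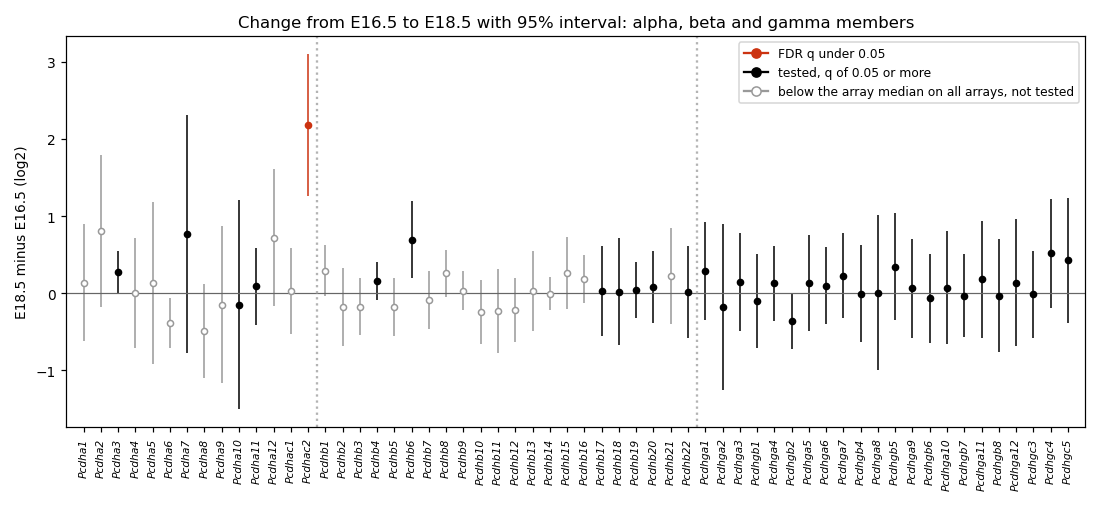
Change from E16.5 to E18.5 (log2, point) with its 95% interval from limma (bar) for the 58 members in chromosomal order, with dotted lines between the alpha, beta and gamma clusters. *Pcdhac2* (2.18, red) is the 1 member at an FDR q under 0.05; open grey points mark the 24 members below the array median on all arrays.

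The alpha cluster besides *Pcdhac2* was scattered and mostly near background. In the 12 alpha members that are not C-type, changes from E16.5 to E18.5 ranged from -0.49 to 0.81. Over all 14, with *Pcdhac2* the highest at 2.18, the median was 0.11, beside 0.02 over all 25206 genes. This median was 0.0093 without E16.5 replicate 2, 0.23 without E18.5 replicate 1, and 0.030 with each array centred on its median. *Pcdha7* and *Pcdha10* had the widest spread within a day in the cluster. *Pcdha7* was 2.59, 4.62 and 1.93 at E18.5, with 1 sample above the array median, and *Pcdha10* was 1.92, 3.01 and 4.38, with another. Untested members with the smallest p were *Pcdha6*, which was 3.31, 2.88 and 2.97 at E16.5 and 2.64, 2.62 and 2.76 at E18.5, and *Pcdha2*, which was 2.45, 2.00 and 1.35 at E16.5 and 2.02, 2.68 and 3.53 at E18.5. All of their values were below the array median, so that no fold change is given. The 95% interval of the change lay within -1 and 1 on the log2 scale in 2 of the 5 tested alpha members, *Pcdha3* and *Pcdha11*, and in 79.6% of tested genes.

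The beta cluster held no call among its 7 tested members (3.77% of all tested genes rose and 6.21% fell from E16.5 to E18.5). Its median difference between E18.5 and E16.5 was 0.03 (range -0.24 to 0.69), which turned to -0.053 when each array was centred on its median, a step that also moved the median of all genes from 0.02 to -0.06. The interval of the change lay within -1 and 1 in 6 of the 7 tested members, with the exception of *Pcdhb6*. *Pcdhb4*, the other detected member of the first stretch, was 3.84, 3.70 and 3.74 at E16.5 and 3.83, 4.01 and 3.92 at E18.5, at the level of the array medians (change 0.16, SE 0.10, limma FDR q = 0.353). *Pcdhb20*, named after its values were seen as an example of the genes next to the gamma cluster, was 5.50, 5.58 and 5.19 at E16.5, 5.70, 5.14 and 5.51 at E17.5, and 5.11, 5.71 and 5.69 at E18.5. Its days overlapped fully (change 0.08, SE 0.20, limma FDR q = 0.817).

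*Pcdhb22* and *Pcdhb21* had the widest spread within a day in the beta cluster. *Pcdhb22* was 4.39, 4.30 and 4.27 at E16.5 and 3.83, 4.29 and 4.90 at E18.5, so that 1 E18.5 sample lay below all those of E16.5 and 1 above them (change 0.02, SE 0.25). *Pcdhb21* lay between 2.04 and 3.12. *Pcdhb1*, the first gene of the cluster, and *Pcdhb8* lay below the median on every array, with 1.86, 2.08 and 1.91 at E16.5 against 2.12, 2.12 and 2.48 at E18.5 for the first and 2.95, 3.20 and 2.88 against 3.24, 3.39 and 3.17 for the second.

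The gamma cluster, though detected throughout, held no call in any comparison. From E16.5 to E18.5, 3.77% of all tested genes rose and 6.21% fell. At an unadjusted p under 0.05 in limma, 3 of the 22 members differed between E16.5 and E17.5 (14.7% of tested genes). These were *Pcdhga4*, *Pcdhga6* and *Pcdhgc5*, all higher at E17.5. In 2 members the later change differed from the earlier at this p, *Pcdhga4* and *Pcdhga6* (8.11% of tested genes). Changes from E16.5 to E18.5 ranged from -0.37 to 0.52 with a median of 0.08, and their SEs from 0.15 to 0.45. This median was 0.31 without E18.5 replicate 1 and turned to -0.18 without E18.5 replicate 3, and it was 0.0040 with each array centred on its median. The smallest FDR q in limma was 0.164, for *Pcdhgb2*. In 17 of the 22 members the 95% interval of this change lay within -1 and 1, so that a change of more than 1 on the log2 scale was within the interval for 5. Changes ranged from -0.18 to 0.29 in the 12 gamma A members, of which 11 were above 0, and from -0.37 to 0.34 in the 7 gamma B members, of which 1 was. With each array centred on its median, 8 gamma A members and 1 gamma B member were above 0, and after a second quantile normalization 11 and 5, so that these signs depend on the scaling. The difference between the A and B members was not tested.

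*Pcdhgb2* was 7.67, 7.87 and 7.51 at E16.5, 7.67, 6.91 and 7.89 at E17.5, and 7.13, 7.31 and 7.53 at E18.5. Its highest E18.5 sample lay between samples of E16.5, and the difference was -0.37 (SE 0.15). *Pcdhgb5* was 6.12, 6.64 and 6.07 at E16.5 and 6.11, 6.53 and 7.22 at E18.5 (change 0.34, SE 0.29, limma FDR q = 0.472). One E18.5 sample lay above all those of E16.5, and the others were within their range. The widest spread within a day in the cluster was at E17.5 in *Pcdhga1* (6.53, 4.62 and 6.37) and at E16.5 in *Pcdhga8* (4.19, 5.70 and 4.85).

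The spread in the gamma cluster was shared among its members, sample by sample. The mean of the 22 members was 5.82, 6.28 and 5.78 in E16.5 replicates 1 to 3, 6.30, 5.83 and 6.17 at E17.5, and 5.72, 6.02 and 6.41 at E18.5. The day means were 5.96 ± 0.28, 6.10 ± 0.24 and 6.05 ± 0.35 (SD over samples, n = 3), and differed by less than the samples of any 1 day. E16.5 replicate 2 held the highest value of its day in 20 of the 22 members (32.6% of tested genes had theirs there), and E18.5 replicate 3 in 17 (36.7%). E18.5 replicate 1 was the lowest of its day in 17 members (29.2%) and E17.5 replicate 2 in 16 (36.9%). These sample positions were named after the values of the cluster were seen, and no test was made of them. Because gamma members may share probe targets, this shared movement is not 22 separate observations.

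**Figure D4:**
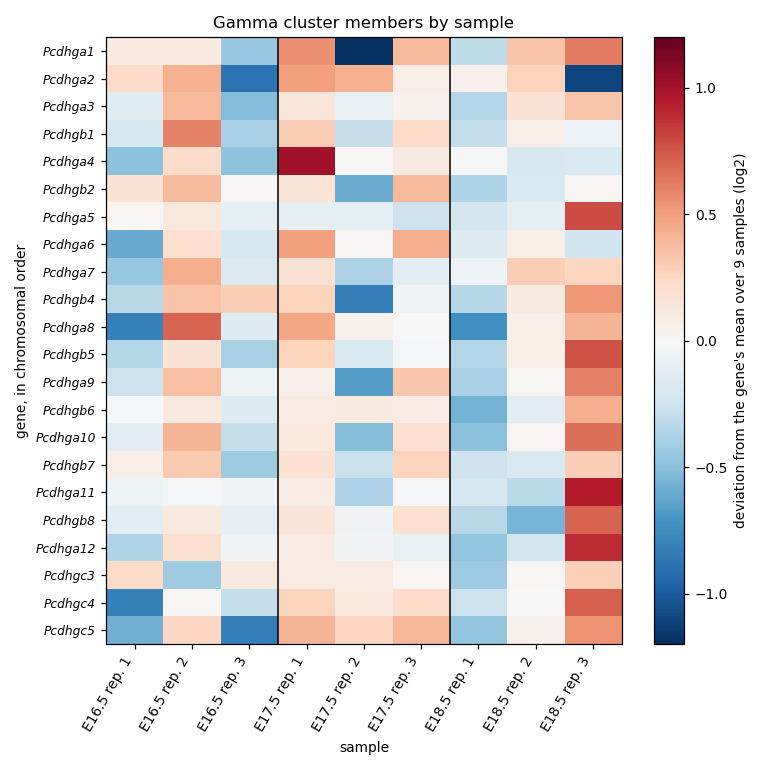
Deviation of each gamma member (rows, in chromosomal order) from its own mean over the 9 samples (columns, grouped by day), in log2 units, with red above and blue below that mean. Columns differ within a day: E18.5 replicate 1 is lowest of its day in 17 members and E18.5 replicate 3 highest in 17.

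Of the 7 beta members above the array median, E18.5 replicate 1 was the lowest of its day in 6, E17.5 replicate 2 was the lowest in 6, E18.5 replicate 3 was the highest in 4, and E16.5 replicate 2 was the highest in 2 and the lowest in 2. Other markers differed between the same E18.5 samples. The mean of 5 platelet markers was 8.42 in replicate 1, 7.64 in replicate 2 and 6.11 in replicate 3, and that of 9 fibroblast markers was 7.06, 6.58 and 5.75. At E16.5 the platelet mean was 5.91 to 6.23 and the fibroblast mean 5.84 to 6.59. From E16.5 to E18.5, 0 of 5 platelet and 0 of 8 tested fibroblast markers passed in limma. Before adjustment, 3 and 1 were higher at p under 0.05 in limma, where 11.1% of tested genes were. Their part in the spread of the gamma and beta members was not tested.

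The gate markers were examined in the sorted cells. All 6 markers listed for lymphatic endothelium were above the median on all 9 arrays. Their mean was 8.65 to 8.95 at E16.5 and 8.87 to 9.23 at E18.5. *Pecam1* (CD31), *Flt4* (Vegfr3), *Lyve1* and *Pdpn* of this list encode the gate antigens, and CD31 is shared by all endothelium. Cells were selected on these proteins, so their RNA is no separate check of lymphatic identity. The share of blood endothelial cells was not estimated here. *Pdpn* rose (1.46, limma FDR q = 0.0149), and 5 did not pass, among them *Prox1* (4.11 to 5.89 over all samples). The blood endothelial marker *Emcn* ranged from 10.31 to 10.94, and *Ptprc*, the gene of CD45, was above the median on 1 array. Other lists passed in no member from E16.5 to E18.5: 9 of smooth muscle and pericytes, 6 tested of 9 of Schwann cells and glia, and 4 tested of 6 matched of leukocytes. At an unadjusted p under 0.05 in limma, 1 of these was lower, in the list of Schwann cells and glia, and 0 were higher.

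Genes that act on the clusters are set beside the shares of tested genes given above, 6.21% that fell and 16.9% lower before adjustment. Of 11 promoter looping and cohesin genes, all tested, 0 rose and 1 fell from E16.5 to E18.5 (0 up and 4 down at p under 0.05 before adjustment, median -0.40, beside -0.04 over all tested genes). *Rad21*, a core cohesin subunit, was 8.70, 8.78 and 8.64 at E16.5 and 8.14, 8.19 and 8.12 at E18.5, and its days did not overlap (-0.55, SE 0.10, limma FDR q = 0.018). *Ctcf*, which binds the protocadherin promoters, was 7.58, 7.61 and 7.44 at E16.5 and 7.20, 7.10 and 7.14 at E18.5, also without overlap (-0.40, SE 0.10, limma FDR q = 0.056).

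Of 15 genes of silencing and DNA methylation, all tested, 0 rose and 4 fell (0 up and 5 down at p under 0.05 before adjustment, median -0.23). *Trim28*, a corepressor, fell by 1.03, *Dnmt1*, the maintenance DNA methyltransferase, by 0.96, *Dnmt3b*, a de novo methyltransferase that acts on protocadherin promoters in mouse, by 0.79, and *Setdb1*, a histone H3 methyltransferase, by 0.64 on the log2 scale (limma FDR q from 0.0183 to 0.0306). *Setdb1* was 5.69, 6.05 and 5.69 at E16.5 and 5.13, 5.21 and 5.17 at E18.5. *Smchd1*, which represses clustered protocadherins in mouse, was 6.29, 7.18 and 6.87 at E16.5 and 6.30, 6.47 and 6.47 at E18.5 (limma FDR q = 0.318). No relation of these genes to the members was tested.

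Downstream, the cytoplasmic partners and proteases of protocadherins gave 0 calls among 16 tested genes in either direction in limma (1 up and 2 down at p under 0.05 before adjustment, median -0.16). *Ptk2b*, a focal adhesion kinase that binds the protocadherin constant domains, was 4.23, 3.96 and 4.12 at E16.5 and 5.19, 4.64 and 4.41 at E18.5 (limma FDR q = 0.0962), and *Wasf1*, of the actin-regulating WAVE complex, was 4.31, 4.35 and 4.31 against 4.09, 3.57 and 3.79 (limma FDR q = 0.0757). *Ptk2b* lay above the array medians (3.79 to 3.91) on both days, and *Wasf1* lay above them at E16.5 and on both sides of them at E18.5.

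Protocadherins outside the clusters and other cadherins are set beside the same shares from E16.5 to E18.5. Of all tested genes, 3.77% rose and 6.21% fell, and 11.1% were higher and 16.9% lower before adjustment. Of 12 non-clustered protocadherins, 5 were tested and 0 passed in limma (0 up and 1 down at p under 0.05 before adjustment). *Pcdh12*, which is expressed by endothelium, was 7.72, 7.24 and 7.21 at E16.5, 7.68, 7.98 and 7.76 at E17.5, and 6.99, 7.05 and 7.44 at E18.5 (limma FDR q = 0.448). *Pcdh19* averaged 4.52 ± 0.42 at E16.5 and 3.75 ± 0.13 at E18.5 (SD, n = 3, limma FDR q = 0.066). Of 8 matched Fat, Dachsous and Flamingo cadherins, 6 were tested, with 1 up and 2 down at p under 0.05 before adjustment in limma. The 1 that passed, *Fat3*, was 1.12 higher at E18.5 (limma FDR q = 0.0293) while lying above the array median on 2 arrays. Of 9 classical and endothelial cadherins, 8 were tested, with 0 up and 2 down at p under 0.05 before adjustment in limma. The 1 that passed was *Cdh2*, which encodes N-cadherin. It was 1.08 lower at E18.5 (limma FDR q = 0.0121), from 7.03 ± 0.23 at E16.5 to 5.95 ± 0.22 (SD, n = 3).

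Tied values were counted in each cluster. Values equal to 6 decimals on 2 or more arrays occurred in 8 of 14 alpha members, 9 of 22 beta members and 2 of 22 gamma members, against 45.4% of all genes. *Pcdhb14*, named after its values were seen, lay between 2.69 and 2.78 on every array. The narrow interval of such a member near background gives no bound on a change of its RNA.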

How the data were processed

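Total RNA of sorted PLECs (RNA integrity number of at least 7.5) was measured on Mouse Gene 2.0 ST arrays. The deposited log2 values had been made by the authors with RMA (background correction, quantile normalization, summary per Entrez Gene probe set) in affy 1.36.1 under R 2.15.1. RMA draws the arrays to near-equal distributions, and the genome build of the probe mapping is not given in the sources used here. Symbols came from RefSeq for 23740 of 25206 genes. *Dchs2* and *Lyz2* of the gene lists were unmatched.

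The 14096 genes that exceeded the median of any of the 9 arrays entered limma 3.58.1 in R 4.3.3 (lmFit, eBayes on all genes, two-sided, Benjamini-Hochberg over the tested genes, called at an FDR q under 0.05). For E18.5 against E16.5 the fit held these 6 arrays, and for all else 9. The number of arrays limits the precision, and p-values measure the spread between pools. The fits were tested on simulated data. The members and the gene lists were chosen with earlier results of these data known. Named members were those with an FDR q under 0.05, the C-type members, and in each cluster the 4 with the smallest p and the 2 with the widest spread within a day. Named listed genes were up to 4 that passed, or the 2 with the smallest p, and the gate markers; for the marker lists only some of these are named, and *Ctcf*, *Smchd1* and *Pcdh12* were added for their roles. Alternatives were the replicate block, each sample left out, all genes tested, a minimum of 3 arrays above the median, centred or again quantile-normalized arrays, array weights, a trended and robust eBayes, and all 9 arrays in every fit. Of 9 pairs of samples with the same replicate number, 2 correlated above 0.1 (range -0.36 to 0.29), so the numbers were not used as pairs.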

Additional observations from a re-analysis of the deposited data

How the results depend on the processing

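The count of members that rose from E16.5 to E18.5 was 1, became 2 in the fit on all 9 arrays (with *Pcdhb6*), and ranged from 0 to 1 when 1 sample was left out. The count that rose from E17.5 to E18.5 was 1, became 0 with no filter, and ranged from 0 to 1 when 1 sample was left out. With the replicate number as a block, this count was 0, *Pcdhac2* was still called from E16.5 to E18.5 (limma FDR q = 0.047), and no other call of a member changed. Most same-numbered samples did not deviate together (2 of 9 pairs correlated above 0.1), and they were not taken as pairs. Over the 14 alternatives that bear on it (leaving out an E17.5 sample does not), the rise of *Pcdhac2* from E16.5 to E18.5 was 1.84 to 2.45 (limma FDR q from 0.00571 to 0.0692) and was called in 11. The median change of the alpha cluster was 0.11, and 0.27 over the members above the median on at least 1 array. Of these members, *Pcdha7* and *Pcdha10* met this filter through 1 E18.5 array each, so the filter was not independent of the change. The median change of the beta cluster was 0.03, and -0.053 with centred arrays. When 1 sample was left out it was -0.079 to 0.18, lowest without E18.5 replicate 3 and highest without E18.5 replicate 1. The cause of these shifts was not tested. No other count of members changed under the alternatives run, and the other medians moved by less than 1 SD between samples. Levels near the array median limit what can be said of most alpha and beta members.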
